A study of Mus musculus with 15 samples.

Results

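The genes described here encode 10 mouse proteins that restrict or handle retrotransposons outside the piRNA pathway, namely Apobec3, Samhd1, Trex1, Mov10, Zc3hav1, Adar, Rnaseh2a, Rnaseh2b, Tex19.1 and L1td1. They were chosen by name as factors with a known role in retrotransposon RNA, DNA or virion handling, and all 10 had an identifier among the 54838 genes of the count tables. Of these 10 genes, 9 were among the 16311 genes with enough reads for testing. The question was how much RNA of each factor foetal gonocytes held and whether that level differed when Tex15 was lost.

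The libraries were RNA-seq of gonocytes, the prospermatogonia of the foetal testis, at embryonic stage E16.5. Of the 6 libraries, 3 were from Tex15+/- gonocytes (controls) and 3 from Tex15-/- gonocytes. The Tex15 null allele was made by CRISPR/Cas9 and carries an insertion in a coding exon. TEX15 is a germ cell protein known to be needed for male meiosis. All 6 libraries, controls included, came from foetuses with one Miwi2 tdTomato reporter allele (Miwi2 tdTom/+), and the gonocytes were sorted by that fluorescence. The controls were heterozygous, not wild type. The descriptions do not say whether the libraries of a genotype came from separate foetuses, so the p-values measure the spread between these libraries.

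Retrotransposons copy themselves through RNA. LINE1 elements reverse transcribe their RNA at the site of insertion, whereas elements with long terminal repeats such as IAP do so in virus-like particles. The piRNA pathway silences them in foetal germ cells by directing methylation to their promoters. The factors here act at other steps, on the RNA, the reverse transcript, the nucleotide pool or the LINE1 protein, and in somatic cells several of them are induced by interferon.

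The libraries held between 4893265 and 5697020 reads on genes. Tex15 itself had 8183, 8315 and 9082 reads in controls and 2338, 1267 and 1310 when Tex15 was lost, which is −2.35 on the log2 scale (SE 0.229, edgeR adjusted p = 0.0112). Germ cell markers had similar summed levels in all libraries, from 3454 to 3735 normalised CPM, the count scaled to the size of the library. Single markers differed more than the sum. Dazl, at 238.3, 204.4 and 236.3 CPM in Tex15-/- gonocytes, was below every control in all 3 libraries. Dppa3 had 18.4 CPM in Tex15-/- replicate 2 and at least 43.3 CPM in controls. Of 11 tested germ cell markers, 1 was lower and 0 were higher without overlap of the groups. An unadjusted p under 0.05 with edgeR was reached by 2, and 0 passed the threshold. All 12 of these markers were detected in every library, Nanos2 with no more than 11 reads. Summed markers of interstitial, Sertoli, Leydig, and macrophage and blood cells were low in controls and in Tex15-/- replicate 1 and higher in Tex15-/- replicates 2 and 3, and endothelial markers were higher in replicate 2. The 9 interstitial cell markers summed to between 65.3 and 80.6 CPM in controls and to 63.5, 1867 and 437 CPM in Tex15-/- replicates 1, 2 and 3. The 8 Sertoli cell markers summed to between 17.0 and 17.2 CPM in controls and to 13.4, 123.0 and 87.7 CPM in Tex15-/- gonocytes. For the 6 Leydig cell markers the control range was 18.8 to 61.6 CPM and the Tex15-/- values were 36.9, 584 and 177 CPM. For the 12 macrophage and blood markers the control range was 23.9 to 27.7 CPM and the Tex15-/- values were 27.7, 96.7 and 112 CPM. The 6 endothelial markers summed to between 60.5 and 64.4 CPM in controls and to 50.1, 218 and 59.0 CPM in Tex15-/- gonocytes. Insl3 and Hba-a1 had 0 reads in every control. The part of these cells in the results was not tested, and each member that moves with them is given below also for Tex15-/- replicate 1 alone.

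Expressed relative to exon length, the factors spanned a 299-fold range in control gonocytes, which was 104-fold with the longest annotated transcript as the length and 555-fold without control replicate 2. Levels between genes are given as normalised CPM per kb of annotated exon. Tex19.1 had the highest level of the 9 measured members at 96.2 ± 3.74 CPM per kb (SD, n = 3), above 98.6% of the 14033 tested protein-coding genes. TEX19.1 is a mammalian germ cell protein that binds the ubiquitin ligase UBR2 and promotes turnover of the LINE1 ORF1 protein. Samhd1 followed at 11.01 ± 0.755 CPM per kb, an 8.74-fold lower level, or 4.02-fold lower with the longest transcript as the length. SAMHD1 hydrolyses deoxynucleotide triphosphates and so limits reverse transcription.

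Rnaseh2a at 7.84 ± 0.701, Mov10 at 6.63 ± 1.38 and Adar at 6.20 ± 0.807 CPM per kb formed a middle group in which the ranges of Rnaseh2a and Mov10 overlapped, as did those of Mov10 and Adar. Rnaseh2b was lower at 4.78 ± 0.550 CPM per kb. L1td1 at 2.56 ± 0.468 and Zc3hav1 at 1.97 ± 0.657 CPM per kb overlapped with each other and lay below the median of 3.75 CPM per kb over tested coding genes. Apobec3 was last at 0.322 ± 0.261 CPM per kb, and at 0.175 CPM per kb without control replicate 2. On all its exons, 9.454 kb beside 3.053 kb for its longest transcript, it was higher than 1.55% of tested coding genes. That share depends on the length used and was not computed for the longest transcript. With the longest annotated transcript as the length in place of all exons, Mov10 stood above Rnaseh2a (9.99 against 9.23 CPM per kb) and Apobec3 remained last at 0.997 CPM per kb. All the other members kept their order.

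**Figure D1:**
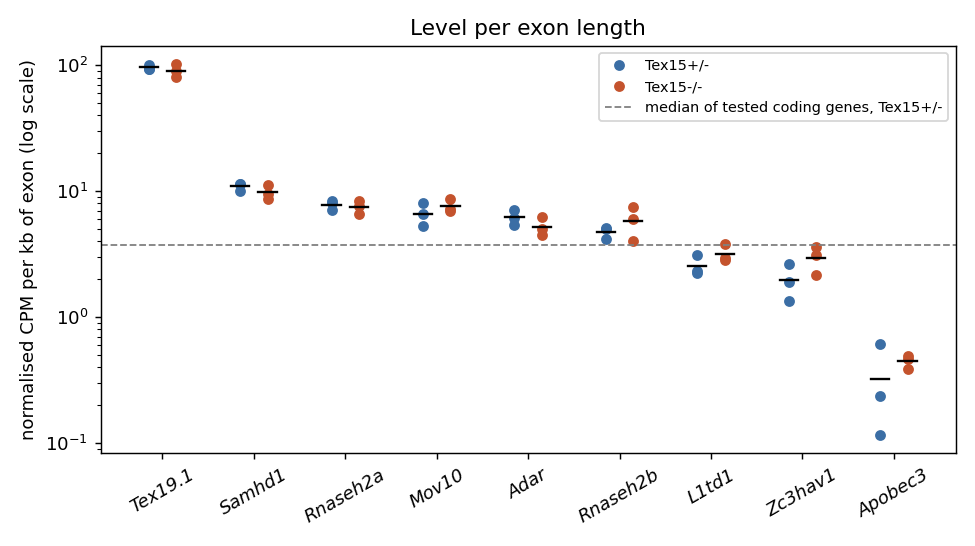
Normalised CPM per kb of exon (log axis) for the 9 measured factors in order of their control level, with each library as a point and the group mean as a bar. Tex19.1 stands at 96.2 CPM per kb in controls and Apobec3 at 0.322, and the dashed line marks the median of tested coding genes at 3.75.

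No member passed the test between genotypes. Tex15 itself, at −2.35 on the log2 scale, also missed an adjusted p under 0.01 with edgeR (adjusted p = 0.0112). DESeq2 called Tex15 (adjusted p = 2.7e-07). A count of 0 with edgeR therefore does not show that a level was unchanged. At an adjusted p under 0.01 edgeR called 0 of the 9 tested members, against 0.0% of all 16311 genes tested, and DESeq2 also called 0 of 9, against 0.0858% of all genes. At an adjusted p under 0.05 edgeR called 0 of 9, against 0.0184%. An unadjusted p under 0.05 was reached by 0 of 9 members with edgeR, against 9.2% of all genes, and by 0 of 9 with DESeq2, against 8.22%. In 0 of 9 members did the 3 Tex15-/- libraries all lie above the controls, and in 0 of 9 all below. Over all genes these shares were 6.51% and 6.68%. The log2 fold changes ran from −0.25 to 0.59 with a median of 0.21, beside a median of −0.00031 over all genes tested, and 5 were positive and 4 negative. In bulk libraries a change in the share of cells that express a gene and a change in its RNA per cell cannot be told apart.

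**Figure D2:**
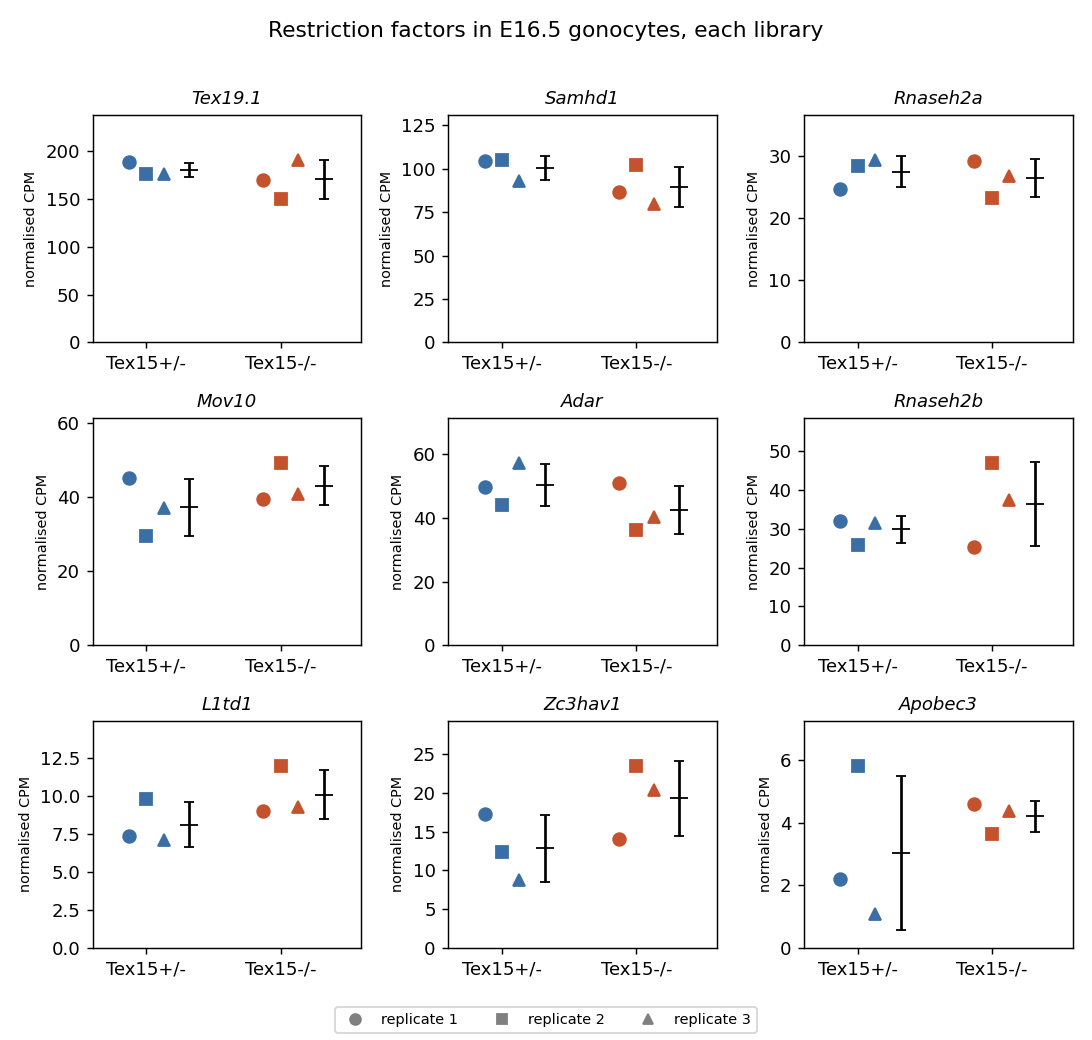
Normalised CPM of the 9 measured factors in each library, with the replicate number as the symbol and the mean ± SD (n = 3) as a black bar beside the points. The Tex15+/- and Tex15-/- ranges overlap in every panel. The widest control spread relative to the mean is that of Apobec3, from 1.10 to 5.82 CPM.

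Tex19.1 (ENSMUSG00000039329, GRCm38 chr11:121146143-121148319, plus strand) had the difference with the smallest SE of the 9 members. Gene coordinates are those of GRCm38 throughout. It had 1021, 880 and 959 reads in controls and 850, 828 and 1001 in Tex15-/- gonocytes. These correspond to 188.2, 176.5 and 175.8 CPM in controls and 170.3, 150.4 and 190.5 CPM in Tex15-/- gonocytes. The Tex15-/- libraries lay on both sides of the controls. The difference on the log2 scale was −0.080 (SE 0.108, 95% interval −0.32 to 0.16, edgeR adjusted p = 0.819), so that the interval reached from 0.801-fold to 1.12-fold.

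Its paralogue Tex19.2 lies next to it on the opposite strand. Tex19.2 had 141, 122 and 155 reads in controls and 103, 119 and 105 in Tex15-/- gonocytes. All 3 Tex15-/- libraries, at 19.98 to 21.62 CPM, lay below the controls at 24.5 to 28.4 CPM. The log2 fold change was −0.34 (SE 0.170, edgeR adjusted p = 0.573), and the two-sided exact permutation test gave p = 0.10, the smallest value that 3 against 3 libraries allow. Per kb of exon, Tex19.1 stood above Tex19.2 by 7.52 ± 0.656 fold in controls and 9.01 ± 1.41 fold in Tex15-/- gonocytes (SD, n = 3), and these ratios overlapped between genotypes. Ubr2, the ubiquitin ligase bound by TEX19.1, had 1110, 1114 and 1150 reads in controls and 998, 934 and 1040 in Tex15-/- gonocytes. Each Tex15-/- library was below each control in CPM, with a log2 fold change of −0.17 (SE 0.1004, edgeR adjusted p = 0.611).

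The promoters of this pair are shown because Tex19.1 is known as a gene whose promoter is silenced by DNA methylation in somatic cells, and CG pairs are the sites of methylation. The 250 bases before each start are from RefSeq on GRCm38.p6, at chr11:121145893-121146142 on the plus strand for Tex19.1 and chr11:121118678-121118927 on the minus strand for Tex19.2, 5′ to 3′ with CG pairs in capitals.
Tex19.1: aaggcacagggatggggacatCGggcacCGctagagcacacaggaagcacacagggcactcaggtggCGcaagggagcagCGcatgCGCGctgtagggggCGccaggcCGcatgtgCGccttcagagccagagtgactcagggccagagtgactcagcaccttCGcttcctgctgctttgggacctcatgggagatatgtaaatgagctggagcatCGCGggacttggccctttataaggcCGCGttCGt
Tex19.2: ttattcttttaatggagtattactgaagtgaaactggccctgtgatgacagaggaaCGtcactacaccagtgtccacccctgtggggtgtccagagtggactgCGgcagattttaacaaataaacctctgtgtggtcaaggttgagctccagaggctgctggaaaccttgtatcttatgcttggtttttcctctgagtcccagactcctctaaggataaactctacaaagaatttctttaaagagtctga
The Tex19.1 window holds 15 CG pairs and the Tex19.2 window holds 2, beside a median of 6 over 32851 mouse promoters of this length. No methylation data are given here. Promoters were listed for 9 of the 10 members, 14 windows in all, with between 3 and 26 CG pairs and a median of 11.

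Samhd1 (ENSMUSG00000027639, chr2:157097533-157135265, minus strand) had 567, 523 and 506 reads in controls and 432, 562 and 418 in Tex15-/- gonocytes. In CPM these were 104.5, 104.9 and 92.7 against 86.6, 102.1 and 79.5. Tex15-/- replicates 1 and 3 were below all controls and replicate 2 was among them, giving a log2 fold change of −0.17 (SE 0.124, 95% interval −0.44 to 0.10, edgeR adjusted p = 0.658).

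RNase H2 removes RNA from RNA–DNA hybrids, the intermediates of reverse transcription, and single ribonucleotides from DNA. It has a catalytic subunit, RNASEH2A, and the subunits RNASEH2B and RNASEH2C. Rnaseh2a (ENSMUSG00000052926, chr8:84956610-84969767, minus strand) had 134, 142 and 160 reads in controls and 146, 128 and 141 in Tex15-/- gonocytes. The groups covered nearly the same range, 24.7 to 29.3 against 23.3 to 29.3 CPM, and the log2 fold change was −0.057 (SE 0.170, 95% interval −0.43 to 0.32, edgeR adjusted p = 0.923). Its exons share 339 bp (9.66%) with Gm49661 on the same strand, which had 0 reads in every library, and 177 bp with Prdx2 on the other strand. Reads on bases shared with Gm49661 could have been left out of both genes.

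Rnaseh2b (ENSMUSG00000021932, chr14:62292589-62372992, plus strand) had 174, 129 and 172 reads in controls and 126, 258 and 196 in Tex15-/- gonocytes. In CPM these were 32.1, 25.9 and 31.5 against 25.2, 46.9 and 37.3. Tex15-/- replicates 2 and 3 were above all controls and replicate 1 was below them. The log2 fold change was 0.29 (SE 0.217, 95% interval −0.19 to 0.77, edgeR adjusted p = 0.670), and with Tex15-/- replicate 1 alone it was −0.24. Rnaseh2c had 12, 13 and 32 reads in controls and 21, 47 and 24 in Tex15-/- gonocytes, with a log2 fold change of 0.69 (SE 0.479, edgeR adjusted p = 0.651). Per kb of exon the ratio of Rnaseh2a to Rnaseh2b was 1.37, 1.96 and 1.66 in controls and 2.06, 0.883 and 1.28 in Tex15-/- gonocytes. The Tex15-/- ratios thus lay on both sides of the control ratios, with replicate 2 the lowest.

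Mov10 (ENSMUSG00000002227, chr3:104794836-104818563, minus strand) encodes an RNA helicase that binds LINE1 RNA and lowers LINE1 mobility. It had 244, 147 and 202 reads in controls and 196, 270 and 214 in Tex15-/- gonocytes, or 45.0, 29.5 and 37.0 CPM against 39.3, 49.1 and 40.7 CPM. Control replicate 2 was the lowest library and Tex15-/- replicate 2 the highest, and the log2 fold change was 0.21 (SE 0.177, 95% interval −0.18 to 0.60, edgeR adjusted p = 0.705). It was 0.078 with Tex15-/- replicate 1 alone. Leaving out 1 library moved it between 0.071 (without control replicate 2) and 0.37 (without control replicate 1). Factors that act with MOV10 on LINE1 RNA include the helicase UPF1, the uridylyltransferases TUT4 and TUT7 and the RNA-binding protein ZCCHC3. Upf1 had a log2 fold change of −0.039 (SE 0.120), Tut4 of −0.19 (SE 0.118) and Zcchc3 of 0.45 (SE 0.228), with edgeR adjusted p = 0.926, 0.625 and 0.581. Tut7 had 370, 354 and 432 reads in controls and 328, 278 and 289 in Tex15-/- gonocytes, each Tex15-/- library below each control in CPM, with a log2 fold change of −0.35 (SE 0.135, edgeR adjusted p = 0.478).

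Zc3hav1 (ENSMUSG00000029826, chr6:38305286-38354603, minus strand) encodes ZAP, which binds CG-rich RNA and directs it to decay. It had the largest log2 fold change of the 9 members. Controls had 94, 62 and 48 reads and Tex15-/- gonocytes had 70, 129 and 107, or 17.3, 12.4 and 8.80 CPM against 14.0, 23.4 and 20.4 CPM. Tex15-/- replicates 2 and 3 were above all controls and replicate 1 was within their range. The log2 fold change was 0.59 (SE 0.293, 95% interval −0.061 to 1.23, edgeR adjusted p = 0.573), and the adjusted p lay between 0.116 and 0.9995 over 13 alternatives. With Tex15-/- replicate 1 alone the log2 fold change was 0.13. The libraries with more Zc3hav1 were those with interstitial markers at 1867 and 437 CPM, and the part of other cells was not tested.

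KHNYN and TRIM25 are cofactors of ZAP, a nuclease-like protein and a ubiquitin ligase. In Khnyn too the highest libraries were Tex15-/- replicates 2 and 3, with 28, 31 and 36 reads in controls and 29, 99 and 76 in Tex15-/- gonocytes. In CPM these were 5.16, 6.22 and 6.60 against 5.81, 17.99 and 14.5. The log2 fold change was 1.09 (SE 0.390, edgeR unadjusted p = 0.0179, adjusted p = 0.471), and with Tex15-/- replicate 1 alone it was −0.042. Trim25 had a log2 fold change of 0.0099 (SE 0.226, edgeR adjusted p = 0.992).

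**Figure D3:**
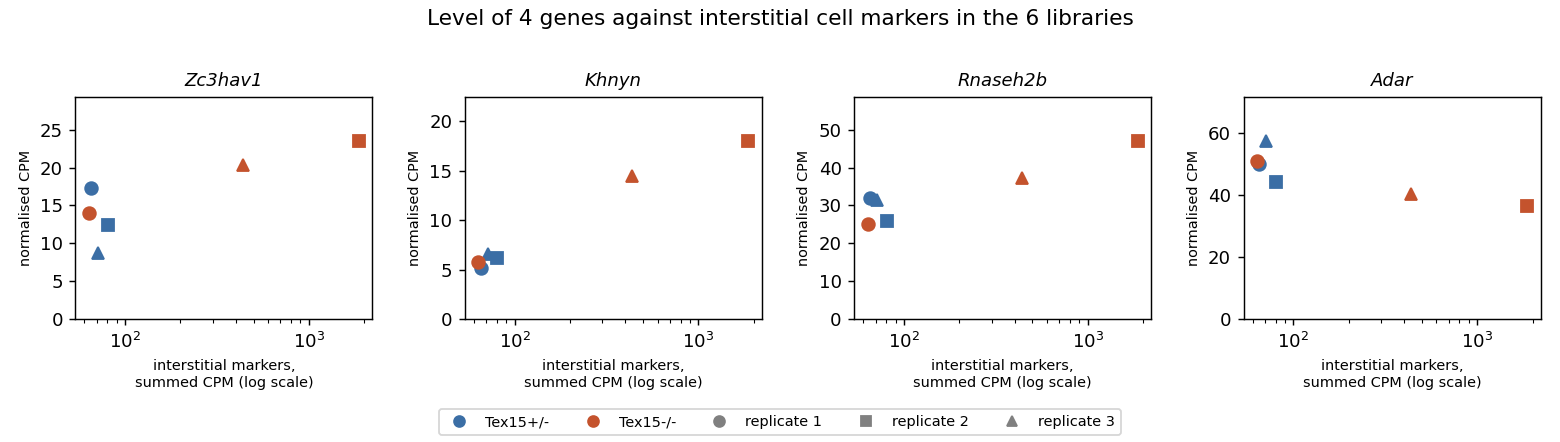
Normalised CPM of Zc3hav1, Khnyn, Rnaseh2b and Adar in the 6 libraries (vertical axes) against the summed CPM of 9 interstitial cell markers (log axis), coloured by genotype with the replicate number as the symbol. Tex15-/- replicate 1 sits at 63.5 CPM of markers beside the controls, and Tex15-/- replicates 3 and 2 sit at 437 and 1867 CPM.

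Adar (ENSMUSG00000027951, chr3:89715022-89753446, plus strand) encodes ADAR1, which converts adenosine to inosine in double-stranded RNA, much of it formed by repeats. It had 270, 220 and 312 reads in controls and 254, 200 and 212 in Tex15-/- gonocytes, or 49.8, 44.1 and 57.2 CPM against 50.9, 36.3 and 40.3 CPM. Tex15-/- replicates 2 and 3 were below all controls and replicate 1 was among them. On the log2 scale the difference was −0.25 (SE 0.164, 95% interval −0.61 to 0.12, edgeR adjusted p = 0.641), and with Tex15-/- replicate 1 alone it was 0.016. Chrnb2, on the other strand, shares 16.8% of the Adar exon bases and had between 18 and 33 reads. Whether the authors counted by strand is not given in the sources used here, so reads on the shared bases could have been left out of both genes.

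L1td1 (ENSMUSG00000087166, chr4:98726734-98738480, plus strand) encodes an RNA-binding protein derived from LINE1 ORF1. It had 40, 49 and 39 reads in controls and 45, 66 and 49 in Tex15-/- gonocytes, or 7.37, 9.83 and 7.15 CPM against 9.02, 11.99 and 9.32 CPM. Only control replicate 2 lay among the Tex15-/- values, and the log2 fold change was 0.32 (SE 0.278, 95% interval −0.29 to 0.93, edgeR adjusted p = 0.717). It was 0.16 with Tex15-/- replicate 1 alone.

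Apobec3 (ENSMUSG00000009585, chr15:79891659-79915906, plus strand) encodes a cytidine deaminase that acts on retroviruses and on elements with long terminal repeats. It had 12, 29 and 6 reads in controls and 23, 20 and 23 in Tex15-/- gonocytes, or 2.21, 5.82 and 1.10 CPM against 4.61, 3.63 and 4.38 CPM. The controls spread on both sides of the Tex15-/- libraries, and their variance was 10.6 times that of read counting alone. The log2 fold change was 0.47 (SE 0.561, 95% interval −0.76 to 1.71, edgeR adjusted p = 0.790). It was 1.33 without control replicate 2 and 0.072 without control replicate 3. The other 8 members had a control variance between 1.16 and 8.56 times that of counting. Apobec3 exons share 676 bp (7.15%) with D730005E14Rik on the same strand, which had between 0 and 3 reads. They share 100 bp with Cbx7 on the other strand. Reads on the shared bases could have been left out of both genes.

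Of the 9 members with a promoter window, 1, Apobec3, had a match to an interferon response motif. The letters searched were GAAANNGAAA on either strand, and 2.98% of all promoter windows held a match. The match is in capitals in the RefSeq window chr15:79892158-79892407 (GRCm38.p6, plus strand), shown 5′ to 3′, and a match is a description of these letters.
Apobec3: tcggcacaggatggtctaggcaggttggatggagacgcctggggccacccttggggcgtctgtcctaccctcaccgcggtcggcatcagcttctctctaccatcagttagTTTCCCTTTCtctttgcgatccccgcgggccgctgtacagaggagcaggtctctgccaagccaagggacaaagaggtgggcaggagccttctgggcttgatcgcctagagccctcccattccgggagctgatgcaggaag
The match TTTCCCTTTC, the motif on the other strand, starts at base 111 of the window. It was found in 1 of the 14 member windows.

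Trex1 (ENSMUSG00000049734, chr9:109057933-109059734, minus strand) encodes an exonuclease that degrades cytosolic DNA, reverse transcripts among it. It was listed with 0 reads in all 6 libraries. All 1147 bp of its annotated exons (100%) are shared with exons of Atrip on the same strand. Atrip had 72, 61 and 82 reads in controls and 93, 49 and 94 in Tex15-/- gonocytes. The default mode of HTSeq assigns a read on exons of both genes to neither, and the mode used is not given in the sources used here, so the level of Trex1 could not be read from these tables and the 0 is not a measured absence. For the other 9 members, between 95.4% (Apobec3) and 100% (Adar) of the 72-base stretches of their exons occur once in the chromosomes of GRCm38.p6.

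**Figure D4:**
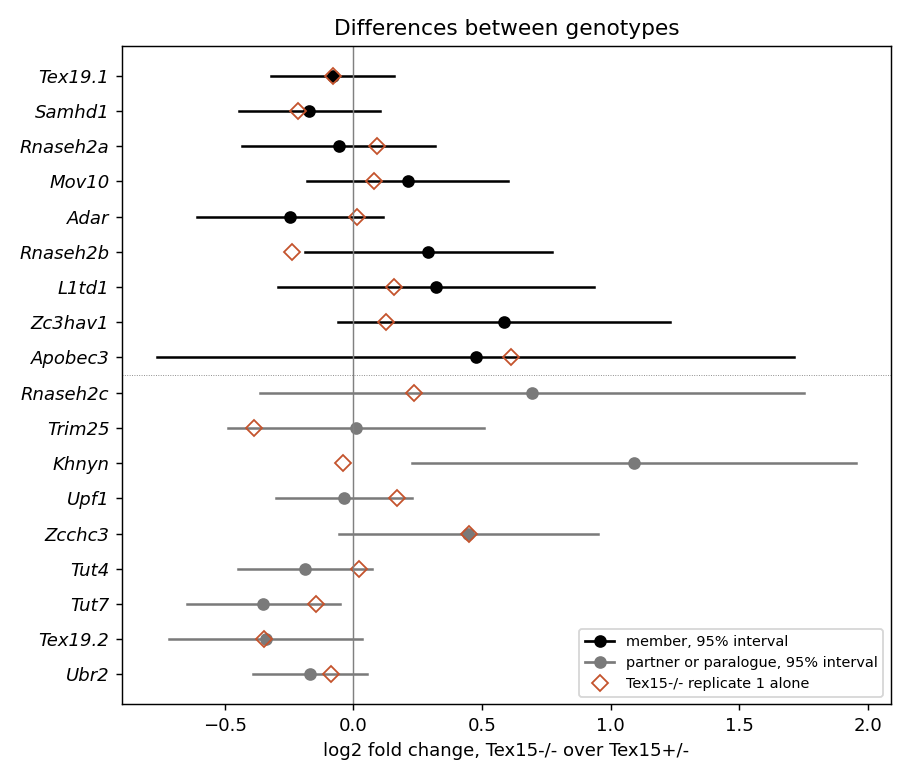
Log2 fold change of Tex15-/- over Tex15+/- gonocytes for the 9 measured factors (black) and 9 partners or paralogues (grey), with 95% intervals from the edgeR fit, and the same value for Tex15-/- replicate 1 alone as open diamonds. The intervals of all 9 factors include 0, and the diamonds lie on either side of the circles, nearer to 0 for Zc3hav1 (0.13 against 0.59) and Khnyn (−0.042 against 1.09) and farther from 0 for Apobec3 (0.61 against 0.47) and Trim25 (−0.39 against 0.0099), among others.

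A wider list held 46 related genes, among them paralogues and partners that need not act on retrotransposons themselves. It covered deaminases, RNA editing, RNase H and DNA degradation, partners of ZAP, MOV10 and TEX19.1, restriction of virions, DNA repair and autophagy. Of these, 41 were tested and 0 passed an adjusted p under 0.01 with edgeR or with DESeq2. An unadjusted p under 0.05 was reached by 1 higher gene, against 6.05% of all genes, and by 4 lower genes, against 3.15% of all genes. With DESeq2 4 of the 41 reached it in either direction, against 8.22% of all genes. All 3 Tex15-/- libraries lay above the controls in 1 of the 41 genes and below them in 7, against 6.51% and 6.68% of all genes. The median log2 fold change was −0.039. The higher gene was Khnyn. The lower genes were Tut7 and 3 others. Fancd2, a DNA interstrand crosslink repair factor, had 1290, 1150 and 1373 reads in controls and 1087, 767 and 923 in Tex15-/- gonocytes, and a log2 fold change of −0.44 (SE 0.144, edgeR adjusted p = 0.460). Its edgeR adjusted p was 0.00724 without Tex15-/- replicate 1, the library with low somatic markers. In that fit 388 genes passed the threshold over all genes, Fancd2 being the 1 related gene among them. With Tex15-/- replicate 1 alone the log2 fold change of Fancd2 was −0.14. Brca1, which acts in homologous recombination, had a log2 fold change of −0.29 (SE 0.113, edgeR adjusted p = 0.479), and Atg5, needed for autophagosome formation, had −0.36 (SE 0.159, edgeR adjusted p = 0.534). In these 3 genes each Tex15-/- library was below each control in CPM.

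Of 14 interferon-stimulated genes, 10 were tested and 0 passed the threshold with either tool. The median log2 fold change was −0.096. With edgeR 1 of the 10, the RNA sensor Ddx58, had an unadjusted p under 0.05, against 9.2% of all genes. It had 159, 154 and 194 reads in controls and 108, 91 and 128 in Tex15-/- gonocytes, each Tex15-/- library below each control in CPM, with a log2 fold change of −0.62 (SE 0.191, edgeR adjusted p = 0.460). Isg15 and Ifit3 had no more than 6 reads in any library and were not tested.

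The repeat RNA of the same libraries was read from counts on consensus sequences, and its log2 fold changes are differences between group means of log2 values. Each sum pools all sequences whose names start with IAP or L1Md, so differences in single repeat families are not shown. Reads on the 28 IAP sequences, as CPM relative to the gene reads of each library, came to 13079, 14938 and 15529 for the controls and 33759, 12085 and 30104 for Tex15-/- gonocytes. Tex15-/- replicates 1 and 3 were above all controls and replicate 2 was below them, with a log2 fold change of 0.67 (two-sided exact permutation p = 0.40). It was 0.40 without Tex15-/- replicate 1, 1.14 without replicate 2 and 1.22 with replicate 1 alone. Scaled to the mapped repeat reads of each library, the 3 Tex15-/- libraries were all above the controls, with a log2 fold change of 0.72 (exact permutation p = 0.10). Again relative to gene reads, reads on the 27 L1Md sequences came to 101477, 117353 and 108460 CPM for the controls and 152329, 74529 and 112782 CPM for Tex15-/- gonocytes, with a log2 fold change of −0.0042 (exact permutation p = 1), while the arithmetic means were 109097 CPM for the controls and 113213 CPM for Tex15-/- gonocytes. Relative to mapped repeat reads it was 0.048 (exact permutation p = 0.40). The libraries also differed in aligned reads that HTSeq assigned to no feature, with 57.7 to 70.1 for each 100 gene reads in controls and 71.2, 28.7 and 43.2 in Tex15-/- replicates 1, 2 and 3, and their part in the repeat values was not tested. Tex15-/- replicate 1 had the most IAP and L1Md reads per gene read, whereas relative to mapped repeat reads replicate 3 had the most IAP reads and replicate 2 the most L1Md reads. In CPM, 3 of the 9 measured members (Samhd1, Tex19.1 and Rnaseh2b) were below every control in Tex15-/- replicate 1, against 24.1% of all genes, and 0 were above every control, against 23.1%. The other 6 were within the control range.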

How the data were processed

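RNA-seq of sorted E16.5 gonocytes (3 Tex15+/- and 3 Tex15-/- libraries, grouped by the sample labels) was used. The authors aligned reads to GRCm38 with HISAT2 and deposited raw gene counts from HTSeq 0.11.1, and deposited counts of reads on rodent repeat consensus sequences. Rows for reads on no single gene (61.3% to 67.3% of each table) were left out, as was the row of unmapped reads in the repeat tables. Of 54838 identifiers, 54723 matched GENCODE vM21. edgeR 4.0.16 (TMM, quasi-likelihood test, Benjamini-Hochberg over 16311 genes, adjusted p under 0.01) was the test, and DESeq2 1.42.0 an alternative. Genes were kept by filterByExpr with a minimum count of 10, not required in every library, and a minimum total of 15. SE is the absolute log2 fold change over the root of F. CPM used TMM library sizes and was divided by the union of exons. Intervals and exact tests (scipy 1.17.1) are two-sided.

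On simulated counts of 16447 genes for this comparison, with a coefficient of variation of 0.2, the test recovered 49% of 100 genes set to change by 1 on the log2 scale and 100% of 100 genes set to change by 2, beside 1 false call. Every simulated library had this same spread, and the changed genes were drawn from those with more reads. In the measured controls the coefficient of variation of members, counting noise included, ran from 3.89% (Tex19.1) to 81.0% (Apobec3). In Tex15-/- libraries the coefficient of variation of members ran from 11.4% (Rnaseh2a) to 29.7% (Rnaseh2b). Tex15, with a log2 fold change of −2.35, missed the same threshold (edgeR adjusted p = 0.0112). The recovered shares therefore describe the simulated setting only. They cannot be taken as shares for the members, least of all for those with few reads or a wider spread.

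The members and gene lists were chosen with earlier results of these data known. Named genes are the members, Tex15, 9 partners or paralogues, and list genes with an unadjusted p under 0.05. Isg15 and Ifit3 were named after their values were seen. Small RNA and P20 testis data were not used here.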

Additional observations from a re-analysis of the deposited data

How the results depend on the processing

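In all 15 alternatives 0 members passed the threshold. Over all genes 0 passed in the reported fit, 14 with DESeq2, 2 with the newer quasi-likelihood estimate of edgeR, 1 when every library needed 10 counts, 488 with no filter on low counts, 3 at an adjusted p under 0.05 and 18 with Tex15-/- replicate 1 alone (an alternative chosen after the data were seen, in which that library is assumed to vary like the controls). Leaving out 1 library gave between 0 and 388 genes, with 388 without Tex15-/- replicate 1, 5 without Tex15-/- replicate 2 and 1 without control replicate 1. The related genes past the threshold were 0 to 1 with 1 library left out, the one being Fancd2 without Tex15-/- replicate 1. With the replicate number as a block 0 genes and 0 members passed. Same-numbered libraries had correlations of −0.143 to −0.00753 in their deviations from the group means. Differently numbered libraries had −0.0862 to 0.127. Deviations from a mean of 3 libraries cannot show whether the numbers pair the libraries.

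Of the alternative log2 fold changes of members, 111 kept their sign and 5 did not. With Tex15-/- replicate 1 alone Adar was at 0.016, Rnaseh2a at 0.092 and Rnaseh2b at −0.24. With 1 library left out Rnaseh2a ranged from −0.13 to 0.032 and Tex19.1 from −0.16 to 0.0061, both highest without Tex15-/- replicate 2. For L1Md reads the log2 fold change was 0.048 relative to mapped repeat reads, 0.48 with Tex15-/- replicate 1 alone, and between −0.25 and 0.27 with 1 library left out (0.050 without control replicate 2, 0.27 without Tex15-/- replicate 2). For IAP reads it stayed positive, between 0.40 and 1.14 with 1 library left out. The cause was not tested.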
